A study of Mus musculus with 8 samples.

Results

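The ErbB receptors and their EGF-family ligands were followed in mouse striatal cells that had been transfected with Bcl11b or with empty plasmid. The set held the receptor genes Egfr, Erbb2, Erbb3 and Erbb4 and the ligand genes Hbegf, Areg, Ereg, Tgfa, Nrg1 and Nrg3, and its members were every array probe carrying one of these 10 symbols. By symbol, 10 probes of 6 genes were found among 25697 probes. A probe listed as Dtr, an older symbol that RefSeq gives for Hbegf, brought this to 11 probes of 7 genes. Erbb2, Erbb3 and Erbb4 were not analysed here, so the receptors were represented by Egfr alone. In these cells Egfr, Areg, Hbegf and Nrg1 gave signal above background on all 8 arrays, whereas Ereg, Tgfa and Nrg3 did not on any. No member probe differed between Bcl11b and control arrays at an adjusted p under 0.10. Among the member probes detected on all 8 arrays, the largest fitted difference was that of Areg, 1.36-fold higher with Bcl11b. The smallest unadjusted p among these probes was that of Nrg1, 1.17-fold lower.

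ErbB receptors are tyrosine kinases of the cell surface that become active when a ligand of the EGF family brings a pair of them together. Egfr binds amphiregulin (Areg) and transforming growth factor alpha (Tgfa), whereas heparin-binding EGF-like growth factor (Hbegf) and epiregulin (Ereg) bind Egfr and Erbb4. Neuregulin 1 (Nrg1) binds Erbb3 and Erbb4, and neuregulin 3 (Nrg3) binds Erbb4. Erbb2 has no ligand of its own and acts as the partner of the other receptors. Most of the ligands are made as membrane proteins and are released by metalloproteases of the ADAM family, and the occupied receptors signal through adaptors such as Grb2, Shc1 and Gab1 before they are taken up and degraded. In the developing forebrain, Egfr is known from dividing neural progenitors and neuregulins from the migration of neurons.

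The cells were STHdh striatal cells of the wild-type STHdh Q7 line, a conditionally immortalized neuronal progenitor line derived from embryonic mouse striatum, grown at its permissive temperature with serum and G418. The Bcl11b group received pcDNA3.1 carrying the cDNA of mouse Bcl11b (beta isoform), a zinc finger transcription factor of medium spiny neurons, and the pcDNA3.1 group received the empty plasmid. The labels call the latter wild-type, and the cells of both groups were wild-type. RNA was taken 2 days after transfection, without a stated selection of the cells that had taken up plasmid, from 4 separately transfected sets of cells in each group. Each set was hybridized to 1 Illumina MouseRef-8 v2 array.

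The signal deposited for a probe is the mean intensity of its beads after background subtraction, with a detection p against the negative control beads. A probe with a detection p under 0.01 is called detected on that array. Before normalization, the median signal was 31.6 to 53.9 on the pcDNA3.1 arrays and 20.1 to 30.2 on the Bcl11b arrays, whereas 10121 to 10784 and 10342 to 10644 probes were detected. Probes detected on all 8 arrays made up 36.4% of all probes and those detected on none 54.3%. The only probe of Bcl11b was not detected on any array, so the arrays do not check the transfection. The study assessed it by counting GFP-positive cells and by qPCR of Bcl11b, and it lists Bcl11b among the striatal genes altered on its arrays. After normalization, arrays also differed within their groups. On the first component of the arrays' deviations from their group means, which took 65.8% of that variance, pcDNA3.1 replicates 2 and 4 scored 21.5 and 20.8 and Bcl11b replicate 4 scored 43.6, whereas the other 5 arrays scored -29.3 to -12.2. The pcDNA3.1 arrays were thus split into pairs, and in the Bcl11b group replicate 4 lay away from the other 3. The cause of this component was not tested, and values without the 3 arrays that scored high are given beside the members and, for the list genes chosen by their p, where they change a call.

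As a check of the labelled cell type, no marker of mature striatal neurons was detected on these arrays (0 of 8, among them Ppp1r1b, Drd1a, Drd2, Gad1, Gad2 and Rgs9). By PCR, however, the study found Ppp1r1b and Rgs9 expressed in these cells. A probe without signal here therefore does not show that the RNA was absent. Of 5 neural progenitor markers, Nes, Sox2 and Vim were detected and Pax6 and Fabp7 were not, with a summed normalized signal of 23160 to 27020 on pcDNA3.1 arrays and 19440 to 27240 on Bcl11b arrays. That sum is mainly Vim, at a mean log2 signal of 14.48 on pcDNA3.1 arrays against 10.54 for Nes and 9.12 for Sox2. Probes differ in brightness, so the sums of different lists are not compared. Of 6 mesenchymal markers, Col1a1, Col3a1, Pdgfra and Dcn were detected and Col1a2 and Lum were not, with sums of 2312 to 4013 and 2947 to 3913. Within that list Pdgfra fell by 0.70 on the log2 scale with Bcl11b (limma, adjusted p = 0.00296) and Dcn rose by 1.47 (adjusted p = 0.0492). Endothelial and oligodendrocyte markers were not detected (0 of 4 each), and 1 of 5 astrocyte markers (Slc1a3) and 1 of 5 microglia markers (Tmem119) were. The part of these genes in the member values was not tested.

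Of the 11 member probes, 4 were detected on all 8 arrays, 2 on some arrays of both groups and 5 on none. The 6 detected probes covered Egfr, Hbegf, Areg and Nrg1. In each case the normalized log2 signal is read across arrays for that probe only, because probes differ in how brightly they bind. As these are arrays of bulk RNA, fewer cells expressing a gene and less RNA per cell cannot be told apart.

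Egfr encodes the epidermal growth factor receptor and lies on chromosome 11 (16752203 to 16913907, GRCm38.p6). Its transcription start was surrounded by the bases printed here, chr11:16751953-16752252 on the forward strand, from 250 bases before to 50 after the start in RefSeq (GRCm38.p6). This window is shown because Egfr is the receptor that the arrays measured and Bcl11b is a DNA-binding protein. The capitals mark the core of a GC box, which is the binding sequence of Sp1-type factors (GGGCGG, here on the reverse strand), 9 to 4 bases before the start.
Egfr: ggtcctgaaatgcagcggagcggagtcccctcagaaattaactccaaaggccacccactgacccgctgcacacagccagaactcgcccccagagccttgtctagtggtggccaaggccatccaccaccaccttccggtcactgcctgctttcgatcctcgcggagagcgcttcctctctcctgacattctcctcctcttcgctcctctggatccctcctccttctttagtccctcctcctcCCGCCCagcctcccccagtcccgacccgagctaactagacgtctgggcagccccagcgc
The window had a GC content of 62.3%. A GC box core was present on either strand in 35.7% of 32851 mouse promoter windows of the same length, so this match is a common one. TATAAA, TGACGTCA and TGACTCA were not found in it.

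The brightest Egfr probe, ILMN_2693922, was detected on every array. Its normalized log2 signal was 10.20, 10.56, 10.52 and 10.84 on pcDNA3.1 replicates 1 to 4 and 10.57, 10.51, 10.49 and 10.48 on Bcl11b replicates 1 to 4. The 4 Bcl11b arrays lay within the range of the pcDNA3.1 arrays, which ran from the lowest to the highest value of the 8. The means were 10.53 ± 0.26 and 10.51 ± 0.043 (SD, n = 4). The fitted difference, Bcl11b minus pcDNA3.1, was -0.02 on the log2 scale with a standard error of 0.13 (limma, adjusted p = 1) and a 95% interval from -0.33 to 0.29. Under other settings its sign turned, as it was 0.055 with division by the array median, 0.084 without pcDNA3.1 replicate 4 and 0.16 without the 3 arrays that scored high. Thus no difference of Egfr was detected by this probe, and one as large as the ends of the interval was not shown to be absent.

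ILMN_3128725, another Egfr probe, was near the detection limit. Its log2 signals were 6.36, 7.03, 6.27 and 6.77 on the pcDNA3.1 arrays, of which replicates 2 and 4 were detected, and 6.80, 6.63, 6.84 and 7.30 on the Bcl11b arrays, all of which were detected. The groups overlapped, and the highest Bcl11b value was that of replicate 4. The difference was 0.29 with a standard error of 0.22 (limma, adjusted p = 0.802, 95% interval -0.25 to 0.82). Without pcDNA3.1 replicates 2 and 4 and Bcl11b replicate 4 it was 0.43 (limma, adjusted p = 0.182), where it passed the unadjusted threshold (p under 0.05 and at least 0.32 on the log2 scale), and without normalization between arrays it was -0.46. By contrast, ILMN_3052260 was fitted lower with Bcl11b. It was detected on replicate 2 of each group, and its log2 signals were 6.55, 6.56, 6.13 and 6.02 on pcDNA3.1 arrays and 5.54, 6.48, 5.16 and 5.48 on Bcl11b arrays. Bcl11b replicate 2 lay among the pcDNA3.1 values and the other 3 Bcl11b arrays lay below all of them. The difference was -0.65 with a standard error of 0.31 (limma, adjusted p = 0.563, 95% interval -1.39 to 0.09), and without Bcl11b replicate 2 it was -0.92 (limma, adjusted p = 0.240), which passed the unadjusted threshold. Without the 3 arrays that scored high it was -0.59 (limma, adjusted p = 0.739). The last Egfr probe, ILMN_2614432, was not detected on any array, with deposited signals of 16.1 to 74.2 on pcDNA3.1 arrays and 23.9 to 53.6 on Bcl11b arrays. The Egfr probes therefore had fitted differences of opposite sign, none of which passed a threshold in the quantile-normalized comparison of all probes and arrays.

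Of the detected ligands, Areg had the largest fitted difference. Areg encodes amphiregulin and lies on chromosome 5 (91139599 to 91148432, GRCm38.p6), near Ereg (91074617 to 91093649). Its start region in RefSeq, chr5:91139349-91139648 on the forward strand of GRCm38.p6, is printed because of that difference. The capitals mark a cAMP response element (TGACGTCA, the binding sequence of CREB-type factors) 61 to 54 bases before the start and a TATA box (TATAAA) 31 to 26 bases before it.
Areg: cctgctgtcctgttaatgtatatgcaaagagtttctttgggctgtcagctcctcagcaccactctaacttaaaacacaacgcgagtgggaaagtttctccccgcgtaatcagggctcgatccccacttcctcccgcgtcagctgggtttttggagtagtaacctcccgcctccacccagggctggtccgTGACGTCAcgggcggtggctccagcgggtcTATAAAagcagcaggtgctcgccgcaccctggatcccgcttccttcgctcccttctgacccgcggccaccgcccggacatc
TGACGTCA, which reads the same on both strands, was present in 1.79% of the 32851 windows, and TATAAA was present on either strand in 13.6%. The window also held a pair of GC box cores, of which the one upstream lay 52 to 47 bases before the start and the other lay after the start. An AP-1 sequence, TGACTCA, was not found in the windows of the members that had a RefSeq entry (6 of 10), whereas 5.2% of all windows had it. These matches describe the letters of the windows, and no binding was measured in the files used here.

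Areg was detected on all 8 arrays. The log2 signals of ILMN_1238547 were 11.48, 10.69, 11.27 and 10.80 on the pcDNA3.1 arrays and 11.67, 11.72, 11.51 and 11.10 on the Bcl11b arrays. The groups overlapped, as pcDNA3.1 replicates 1 and 3 were higher than Bcl11b replicate 4. The means were 11.06 ± 0.38 and 11.50 ± 0.28 (SD, n = 4). The difference was 0.44 with a standard error of 0.23, or 1.36-fold (limma, adjusted p = 0.612), and its 95% interval ran from -0.10 to 0.99. In each group the lower Areg values were those of the 3 arrays that scored high on the first within-group component. With these 3 arrays left out the difference was 0.27 (limma, adjusted p = 0.440). With the component as a covariate it was again 0.44, with a standard error of 0.072 (limma, adjusted p = 0.0729), although a covariate computed from the same arrays takes up spread within groups by construction. Leaving out pcDNA3.1 replicate 1 gave 0.59 (limma, adjusted p = 0.475) and leaving out Bcl11b replicate 4 gave 0.58 (adjusted p = 0.387), both past the unadjusted threshold. Over all alternatives the adjusted p of Areg lay between 0.0729 and 0.922. Without normalization between arrays its difference was -0.19, where the median of all probes, most of them undetected, was -0.49. Areg was thus fitted higher with Bcl11b under every other setting tried, and passed the unadjusted threshold in 4 of 20.

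Hbegf encodes heparin-binding EGF-like growth factor, which is shed from the cell surface. Its probe, ILMN_2698449, was detected on all 8 arrays with log2 signals of 10.84, 11.03, 10.25 and 10.73 on pcDNA3.1 arrays and 10.67, 10.66, 11.03 and 11.15 on Bcl11b arrays. The groups overlapped over most of their range, and the lowest value was that of pcDNA3.1 replicate 3. The difference was 0.16 with a standard error of 0.20 (limma, adjusted p = 0.901, 95% interval -0.32 to 0.65). The difference was 0.25 without the 3 arrays that scored high and 0.0083 without pcDNA3.1 replicate 3. Without normalization between arrays it was -0.50, where the median of all probes, most of them undetected, was -0.49. No difference of Hbegf was detected, and one as large as the ends of the interval was not shown to be absent.

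Nrg1, a ligand of Erbb3 and Erbb4, lies on chromosome 8 (31807452 to 32891609, GRCm38.p6). ILMN_2971688 was detected on all 8 arrays, with log2 signals of 8.52, 8.43, 8.64 and 8.80 on pcDNA3.1 arrays and 8.26, 8.42, 8.39 and 8.41 on Bcl11b arrays. All 4 Bcl11b arrays were below all 4 pcDNA3.1 arrays, although pcDNA3.1 replicate 2 (8.426) and Bcl11b replicate 2 (8.419) were nearly equal. The means were 8.60 ± 0.16 and 8.37 ± 0.073 (SD, n = 4). The difference was -0.23 with a standard error of 0.086, or 1.17-fold lower, with a 95% interval from -0.44 to -0.02 (limma, adjusted p = 0.430). Its unadjusted p was under 0.05, but the difference was smaller than the 0.32 that the unadjusted threshold also asked for, so Nrg1 passed neither threshold. Its difference stayed negative under all alternatives, from -0.94 without normalization to -0.16 without pcDNA3.1 replicate 4, with adjusted p values of 0.126 to 0.711 by limma. Its unadjusted p was above 0.05 with any array other than pcDNA3.1 replicate 1 or 2 left out, where the differences were -0.16 to -0.24. Without the 3 arrays that scored high its difference was -0.23 (limma, adjusted p = 0.329).

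**Figure D1:**
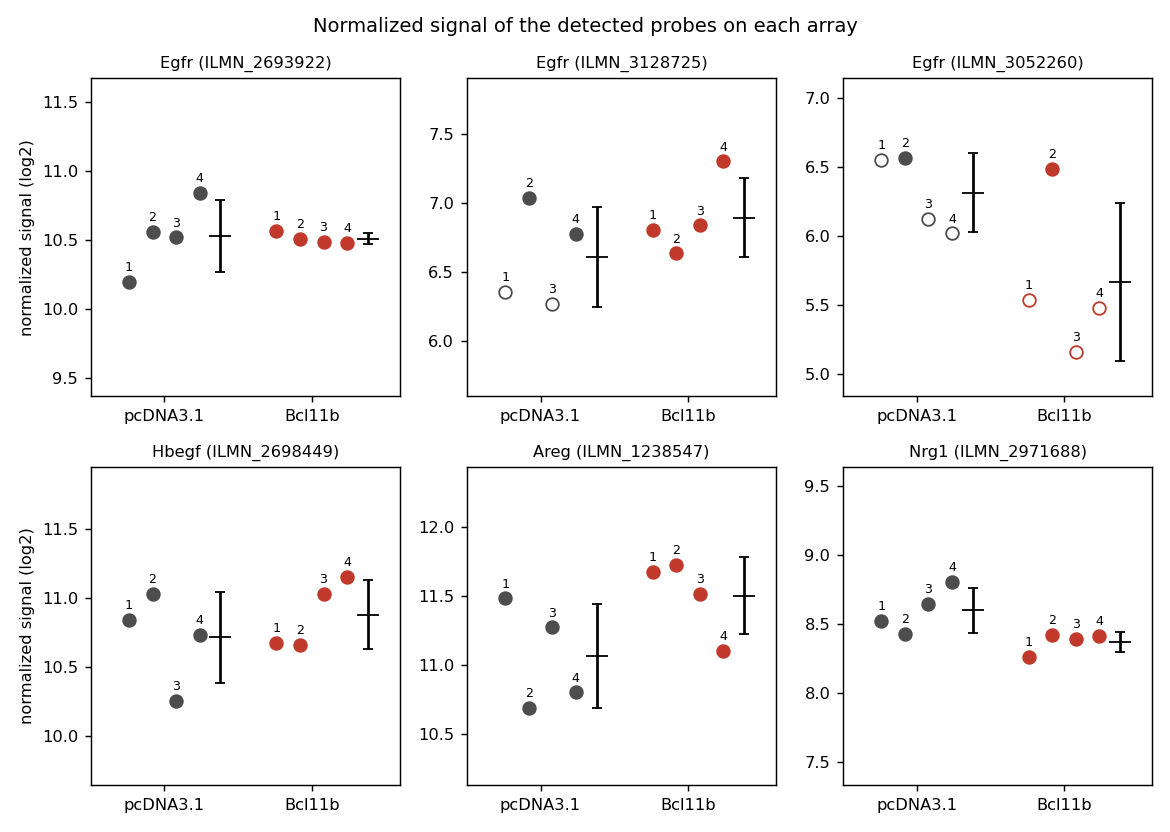
Normalized log2 signal (vertical axes, each spanning the values of its own probe) of the 6 member probes detected in both groups, on the 4 pcDNA3.1 arrays (grey) and the 4 Bcl11b arrays (red), numbered by replicate. Filled points are arrays on which the probe was detected, open points arrays on which it was not, and bars give the mean ± SD. In the Nrg1 panel all 4 Bcl11b arrays lie below the pcDNA3.1 arrays, whereas in the other 5 panels the groups overlap.

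Among the 6 detected member probes, 0 passed the adjusted threshold, against 0.981% of all 25697 probes, which include the undetected ones. By limma, 0 passed the unadjusted threshold of p under 0.05 with at least 0.32 on the log2 scale, against 13.8% of the 10918 probes detected in both groups, and 1 (Nrg1) had an unadjusted p under 0.05, against 16.9%. The groups of 1 probe (Nrg1) did not overlap, against 9.37% of those probes. By an exact two-sided permutation test of each of the 6 probes, Nrg1 had p = 0.0286, the smallest that 4 against 4 arrays allow, and the other probes had p values of 0.0857 (Egfr ILMN_3052260), 0.114 (Areg), 0.229 (Egfr ILMN_3128725), 0.543 (Hbegf) and 0.743 (Egfr ILMN_2693922), none of them corrected for the number of probes. Fitted differences were higher with Bcl11b for 3 probes (Egfr ILMN_3128725, Hbegf and Areg) and lower for 3 (Egfr ILMN_2693922 and ILMN_3052260, and Nrg1), where division by the array median moved ILMN_2693922 to the higher side and omission of the normalization moved all 6 to the lower. Their median difference was 0.07, and that of all probes detected in both groups was -0.01. With so few probes these shares are close to the background, and nothing particular to the family was read from them.

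**Figure D2:**
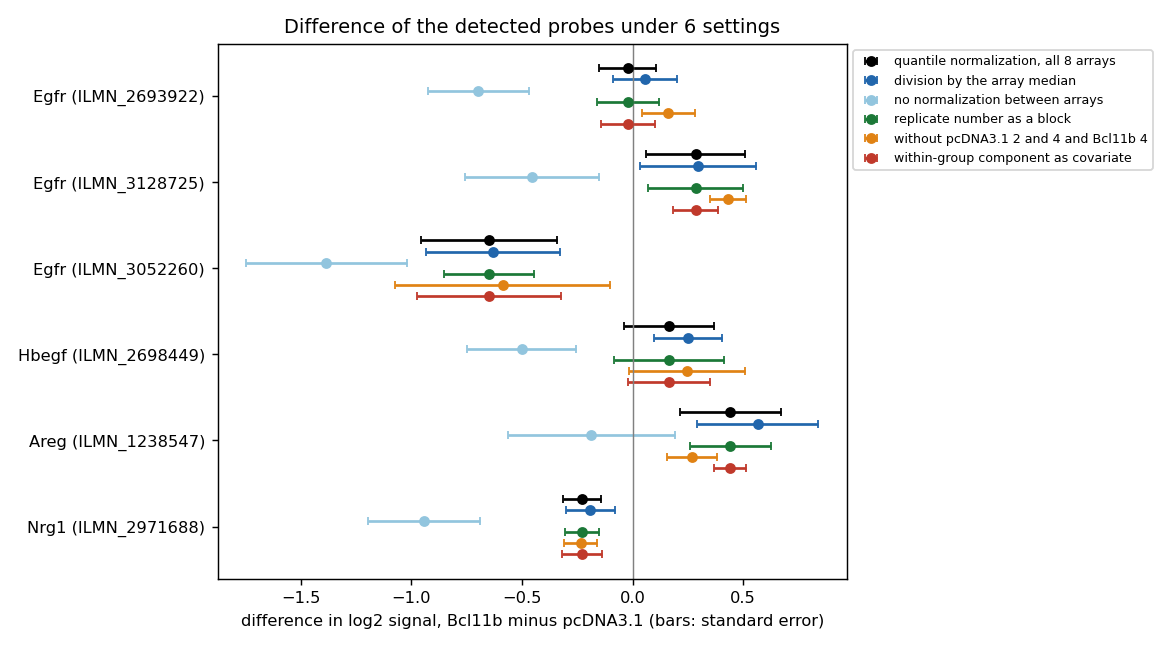
Difference in log2 signal, Bcl11b minus pcDNA3.1 (horizontal axis), of the 6 detected member probes under 6 settings, with bars of 1 standard error. Omitting the normalization moves every probe to the left. It moves the median of all probes, most of them not detected on any array, by -0.49. The remaining settings keep Areg to the right of 0 and Nrg1 to the left.

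The remaining ligands gave no signal above background. Ereg, which lies near Areg, had deposited signals of 19.5, -1.36, 1.98 and 21.1 on pcDNA3.1 arrays and -1.55, -1.11, -3.07 and -10.4 on Bcl11b arrays for ILMN_1219065, and its other probe, ILMN_2735702, was below 0 on every array. Tgfa (chromosome 6, 86195038 to 86275744) had signals of 4.90, 11.9, 14.6 and 4.51 on pcDNA3.1 arrays and 9.36, 2.21, 12.5 and 0.826 on Bcl11b arrays. All of these lay below the dimmest detected signal of their array, which ranged from 49.9 to 138.6 over the 8 arrays. Nrg3 (chromosome 14, 38365102 to 39473235) had signals of -3.93, -8.14, -5.99 and 0.083 on pcDNA3.1 arrays and -0.375, 3.11, 11.98 and 15.9 on Bcl11b arrays. Its Bcl11b values were higher on replicates 2 to 4, but each was far below the limit of its array. In the fit over all probes Nrg3 passed the unadjusted threshold (limma, adjusted p = 0.409), and it was the only one of the 11 member probes to do so, against 9.02% of all probes. Since signals at or under 1 were set to 1 before the log, the size of that difference depends on this floor, and no fold change is given for it or for the other undetected probes. With a detection limit of 0.05 in place of 0.01, 5 member probes were detected on all 8 arrays, 2 on some and 4 on none.

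**Figure D3:**
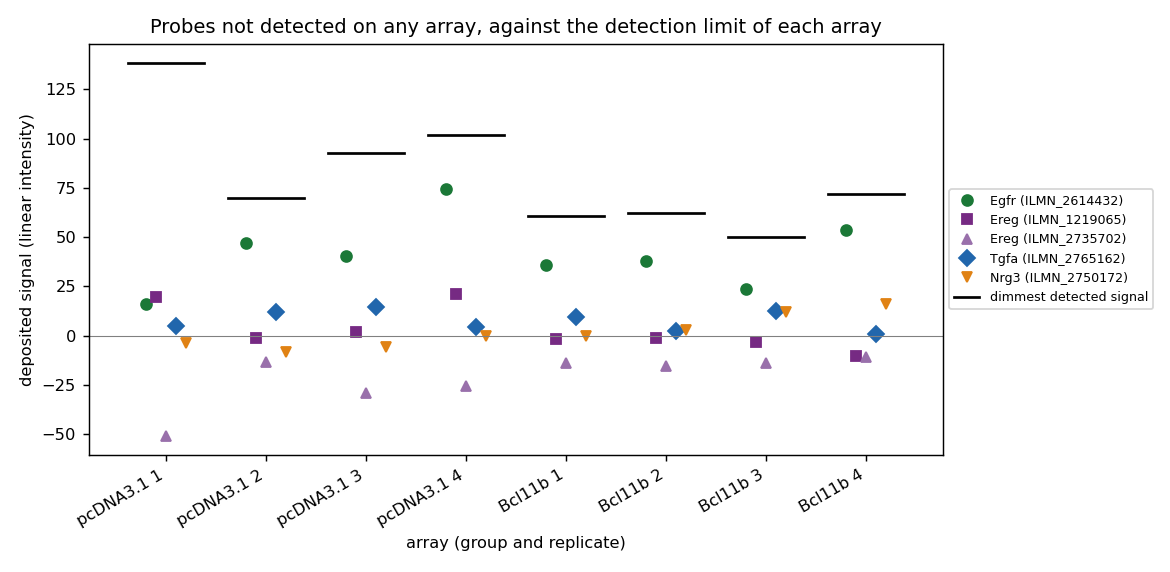
Deposited signal (vertical axis, linear intensity after background subtraction) of the 5 member probes not detected on any array, on each of the 8 arrays. Black lines mark the dimmest detected signal of each array, and every point lies below its line. The Egfr probe is nearest to the line on every array other than pcDNA3.1 replicate 1, where the Ereg probe ILMN_1219065 is. The Ereg probe ILMN_2735702 is below 0 throughout.

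The patterns most like those of Nrg1 and Areg over the 8 arrays were looked up among the 9360 probes detected on all of them, by the root mean square difference of log2 values centred on each probe's mean. Nearest to Nrg1 were BC025575 (0.0535), Scap (0.0541), which escorts the sterol-regulated factors SREBP, and Glo1 (0.0597), which detoxifies methylglyoxal, whereas the median distance over probes was 0.288. Nearest to Areg were Acot8 (0.102), a peroxisomal thioesterase, Mlf1 (0.104) and D4Ertd22e (0.114), with a median distance of 0.483. Their fitted log2 differences were -0.22 for BC025575, -0.21 for Scap and -0.26 for Glo1, and 0.52 for Acot8, 0.51 for Mlf1 and 0.31 for D4Ertd22e. These probes share arrays and normalization with Nrg1 and Areg, and the distances are a description.

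The genes around the receptors were examined as 4 lists of 58 symbols, of which 53 were matched (3 by an older symbol) and 38 had a brightest probe detected in both groups. Of these 38, 9 passed the unadjusted threshold lower with Bcl11b and 1 higher, against 9.87% and 3.88% of all probes detected in both groups, and 28 passed in neither direction. The lists were chosen with earlier results of these data known. They include Gab1, Plcg2, Pik3r1, Mapk9 and Shc1, which the study reports as changed by Bcl11b in these cells. The comparison with these shares is therefore not independent of the data. From expression and binding together, the study also links Bcl11b to the ErbB pathway through Nrg3, Pak4, Plcg2, Mapk9, Shc1 and Mapk10. Of these, Plcg2 and Mapk9 passed the unadjusted threshold here, both lower. Pak4 (-0.46, limma adjusted p = 0.599) and Shc1 did not pass, and Nrg3 and Mapk10 were not detected on any array. With each array left out the total of 10 lay between 5 (without Bcl11b replicate 3) and 12 (without pcDNA3.1 replicate 2), and it was 6 without pcDNA3.1 replicate 3 or 4. Btc, Rhbdf1, Timp3, Gab1 and Plcg2 passed in all 8 of these fits. Of all 25697 probes, 2317 passed with all arrays, 823 of them higher, and 1632 to 3053 passed with each array left out. Without the 3 arrays that scored high, 12 genes passed, 4 of them higher, where 3202 of all probes passed, 1528 of them higher. Without normalization 24 of the 38 passed, all lower, and of all 25697 probes 6963 passed, 6820 of them lower. These counts use the brightest probe of each gene, and among the other probes detected in both groups 3 passed, all higher (a pair of Stam probes and ILMN_2640330 of Cd44). Rhbdf1 and Gab1 passed the adjusted threshold. The names outside the rule for named genes, chosen after their values were seen, are Src, Mapk9, Stam, Cd44, Pak1, Pak4, Mapk10, Stat5a, Rhbdf2, Adam17, Egf, Epgn and Nrg4.

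Of the other EGF-family ligands (5 symbols, 4 matched), betacellulin, encoded by Btc and binding Egfr and Erbb4, was detected in both groups. The log2 signals of Btc were 7.05, 7.08, 6.71 and 7.06 on pcDNA3.1 arrays and 6.45, 6.43, 6.77 and 6.55 on Bcl11b arrays. Bcl11b replicate 3 lay above pcDNA3.1 replicate 3, and the other Bcl11b arrays lay below all controls. The difference was -0.42 with a standard error of 0.11 (limma, adjusted p = 0.252), past the unadjusted threshold. It was -0.32 without the 3 arrays that scored high (limma, adjusted p = 0.576), which did not pass. Egf was detected on 1 pcDNA3.1 array and Epgn and Nrg4 on none.

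The second list, ligand release and membrane partners, had 12 symbols, of which 11 were matched and 9 detected in both groups. Here 2 passed the unadjusted threshold, both lower, and the median difference was -0.18. Rhbdf1 encodes iRhom1, a pseudoprotease that guides Adam17 to the cell surface. Its log2 signals were 11.58, 11.68, 12.03 and 11.91 on pcDNA3.1 arrays and 10.83, 10.93, 10.97 and 11.23 on Bcl11b arrays, with no overlap. It fell by 0.80 with a standard error of 0.13, or 1.75-fold (limma, adjusted p = 0.0802). The adjusted call was lost with any array other than pcDNA3.1 replicate 2 or Bcl11b replicate 4 left out, at adjusted p values of 0.115 to 0.234 and differences of -0.73 to -0.88. Without the 3 arrays that scored high it was -0.92 (limma, adjusted p = 0.185). Over all alternatives its adjusted p was 0.0249 to 0.234. Timp3 encodes an inhibitor of Adam17 and other metalloproteases. Its brighter probe had log2 signals of 11.56, 11.68, 11.92 and 11.90 on pcDNA3.1 arrays and 11.26, 11.30, 11.23 and 11.35 on Bcl11b arrays, with no overlap and a difference of -0.48 (standard error 0.087, limma adjusted p = 0.109). That probe passed the adjusted threshold without pcDNA3.1 replicate 1 (-0.55, limma adjusted p = 0.0820). The other Timp3 probe, detected on all arrays, had -0.35 (limma, adjusted p = 0.729). Adam17, the main protease that releases Areg, Hbegf and Tgfa, had a difference of 0.0086 with a standard error of 0.063 (limma, adjusted p = 1). Adam9 had -0.44 (limma, adjusted p = 0.569) and Cd9, a tetraspanin that binds Hbegf, had -0.18 (adjusted p = 0.802), which turned to 0.033 with division by the array median. Dlg4, detected on 1 array of each group, had 1.81 with a standard error of 1.48, and 0.32 without pcDNA3.1 replicate 1. ILMN_2640330 of Cd44, a membrane partner that can present Hbegf, had 0.94 (limma, adjusted p = 0.449) and passed the unadjusted threshold, whereas the brightest Cd44 probe had 0.36 and did not. Rhbdf2 was detected on 1 Bcl11b array.

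Receptor inhibitors and turnover genes (17 symbols, 16 matched, 12 detected in both groups) held 1 gene past the unadjusted threshold and had a median difference of 0.04. That gene was Ptpn1, encoding a tyrosine phosphatase that acts on Egfr, at -0.62 with a standard error of 0.22 (limma, adjusted p = 0.380). It no longer passed without pcDNA3.1 replicate 1, 3 or 4 or Bcl11b replicate 3 or 4, where its differences were -0.53 to -0.60, whereas it passed the adjusted threshold without pcDNA3.1 replicate 2 (-0.84, limma adjusted p = 0.0183) and without the 3 arrays that scored high (-0.83, adjusted p = 0.0873). Rnf41, the ubiquitin ligase that turns over Erbb3, had a difference of 0.27, or 1.21-fold (limma, adjusted p = 0.385), and its other probes had 0.32 and -0.20. Errfi1, an inhibitor of the Egfr kinase that is induced by its signalling, had 0.17 (limma, adjusted p = 0.609). Without normalization Rnf41 and Errfi1 were at -0.46 and -0.48. Rnf41 passed the unadjusted threshold without pcDNA3.1 replicate 2 (0.34), Bcl11b replicate 2 (0.33) or the 3 arrays that scored high (0.37), and Socs5 without pcDNA3.1 replicate 1 (-0.45). Socs5 had -0.31 on all arrays (limma, adjusted p = 0.594) and Lrig3 had -0.10 (adjusted p = 0.802), which turned to 0.037 with division by the array median. For Stam, which sorts receptors in endosomes, the brightest probe had -0.02 whereas the other pair, detected on all 8 arrays, had 0.59 and 0.67 and passed the unadjusted threshold (limma, adjusted p = 0.141 and 0.135).

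The largest list was that of adaptors and proximal effectors, with 24 symbols, 22 matched and 16 detected in both groups. In it 5 genes passed the unadjusted threshold lower and 1 higher, with a median difference of -0.24. Gab1 encodes a docking protein that links Egfr to the PI3 kinase. Its log2 signals were 9.82, 9.80, 10.08 and 10.05 on pcDNA3.1 arrays and 9.41, 9.47, 9.30 and 9.46 on Bcl11b arrays. The groups did not overlap, and Gab1 fell by 0.53 with a standard error of 0.080, or 1.44-fold (limma, adjusted p = 0.0701). Leaving out any array other than pcDNA3.1 replicate 2 ended the adjusted call, at adjusted p values of 0.115 to 0.212 and differences of -0.48 to -0.57. Without the 3 arrays that scored high it was -0.56 (limma, adjusted p = 0.193). Over all alternatives its adjusted p was 0.0322 to 0.272. Of the remaining genes that passed lower, Plcg2, a phospholipase, had -0.44 (limma, adjusted p = 0.174), Nck2, an adaptor, -0.39 (adjusted p = 0.282), Pik3r1, the regulatory subunit of PI3 kinase, -0.53 (adjusted p = 0.379), and Mapk9, a JNK kinase, -0.33 (adjusted p = 0.474). Pik3r1 no longer passed (-0.46 to -0.51) on omission of pcDNA3.1 replicate 2, 3 or 4 or of Bcl11b replicate 1, 2 or 3, and Nck2 (-0.31) on omission of Bcl11b replicate 3. Without the 3 arrays that scored high Pik3r1 did not pass either (-0.44, limma adjusted p = 0.520). Plcg2 passed the adjusted threshold without pcDNA3.1 replicate 2 (-0.50, limma adjusted p = 0.0910). Other probes of Mapk9 had -0.02 and 0.000021. Shc1, which binds the phosphorylated receptor, had -0.29 (limma, adjusted p = 0.310), under the fold limit, and -0.017 with division by the array median. It passed the unadjusted threshold without pcDNA3.1 replicate 1 (-0.37) or Bcl11b replicate 4 (-0.33). The gene that passed higher was Src, a tyrosine kinase that acts with Egfr, at 0.78 with a standard error of 0.31 (limma, adjusted p = 0.456). Omitting pcDNA3.1 replicate 1, 3 or 4, or Bcl11b replicate 1, 3 or 4, left 0 higher calls in the lists. Pak1 was detected on 3 pcDNA3.1 arrays and no Bcl11b array, at least 1.09-fold lower with Bcl11b (limma, adjusted p = 0.301), and Stat5a on 2 pcDNA3.1 arrays.

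**Figure D4:**
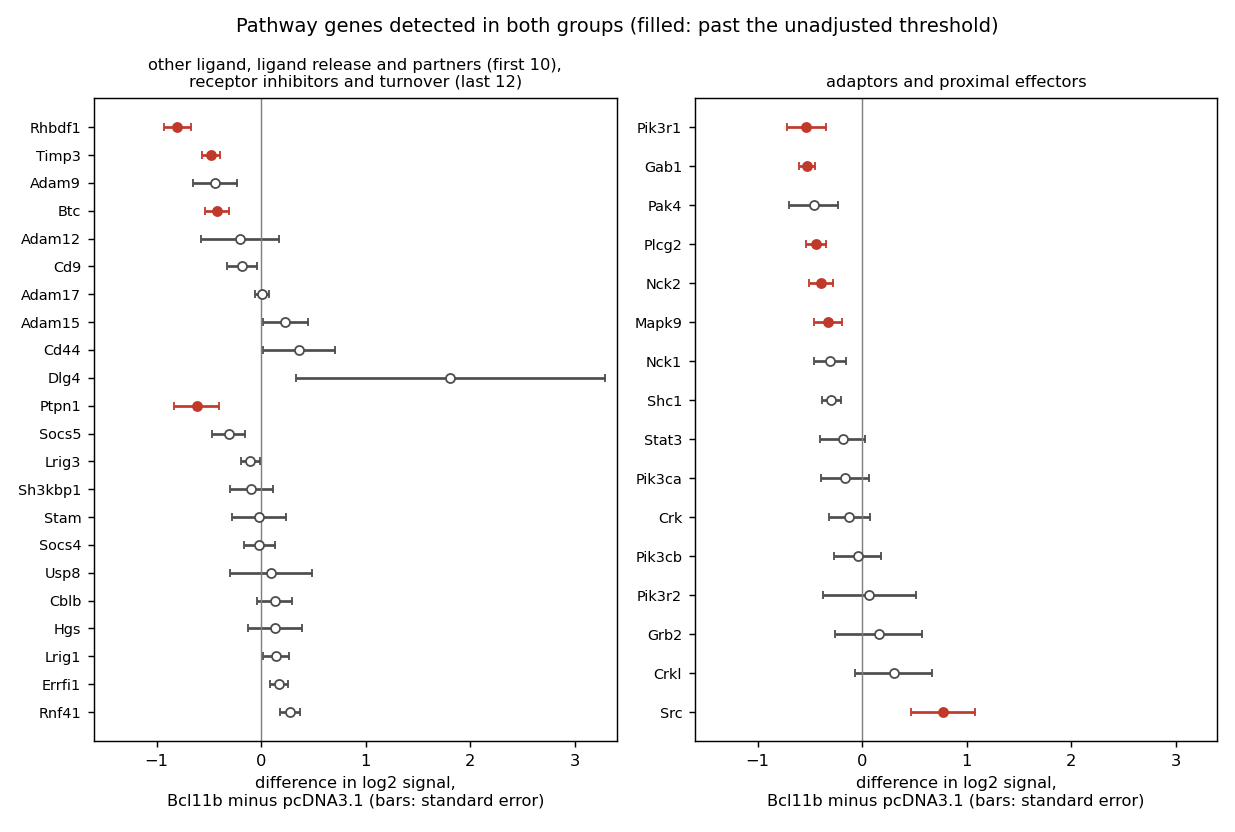
Difference in log2 signal, Bcl11b minus pcDNA3.1 (horizontal axes), of the 38 pathway genes detected in both groups, with bars of 1 standard error. Filled points passed the unadjusted threshold of p under 0.05 with at least 0.32: 9 lie left of 0 and 1, Src, lies right of it, and Dlg4 has the widest bar.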

How the data were processed

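RNA of STHdh striatal cells was hybridized to 8 Illumina MouseRef-8 v2 arrays, 4 per group, and groups and replicate numbers were taken from the labels. For every probe the authors deposited an average bead intensity, exported from GenomeStudio after background subtraction and not normalized between arrays. They also deposited a detection p-value per probe, used here at a limit of 0.01. Following the study's methods, signals were quantile-normalized, values under 1 were set to 1, and log2 values were compared with limma (version 3.58.1, R 4.3.3; lmFit and eBayes) over all 25697 probes with Benjamini-Hochberg adjustment. Thresholds were an adjusted p of 0.10, and an unadjusted p of 0.05 with a difference of at least 0.32 on the log2 scale, the rounded log2 of the fold limit in the study. How the authors treated signals at or below 0 is not given in the sources used here. The script was tested on simulated data. No signal was identical on any pair of arrays.

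The members and lists were chosen with earlier results of these data known. All member probes are named. Of each pathway list, up to 5 genes with the smallest p among those detected in both groups are named, by their brightest probe, and for 2 members the 3 nearest probes. The 4 sets per group were transfected separately, and p-values measure only the spread between them. The number of arrays limits the precision. Promoter sequences, gene positions and older symbols came from RefSeq (GRCm38.p6). Cell type lists of striatal neurons, neural progenitors, astrocytes, oligodendrocytes, microglia, endothelial and mesenchymal cells were checked for detection. Alternatives of the normalization were none, division by the median, neqc, an offset of 16 and a shift of the lowest signal to 1. Alternatives of the fit were detection filters, limma-trend with robust eBayes, arrayWeights, a block for the replicate number and leaving out each array. After the data were seen, omission of 3 arrays together and a covariate of variation within groups were added, as was an exact permutation test of single probes.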

Additional observations from a re-analysis of the deposited data

How the results depend on the processing

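The count of all probes past the adjusted threshold, 252 (91 higher and 161 lower with Bcl11b), depended on most settings. It was 57 without normalization, 146 with division by the array median (100 higher and 46 lower) and 413 with neqc (146 and 267). It was 107 with the lowest signal shifted to 1 (76 and 31) and 45 with limma-trend and robust eBayes together (35 and 10). With arrayWeights it was 642, and with the within-group covariate 755. With each array left out it was 87 to 637. Higher calls outnumbered lower ones in 6 of these 8 fits (53 and 34 without Bcl11b replicate 1) but not without pcDNA3.1 replicate 2 or Bcl11b replicate 4. The split was 165 and 158 without the 3 arrays that scored high and 362 and 393 with the covariate. The count of detected member probes past the unadjusted threshold with its fold limit, 0, became 3 without normalization (Egfr ILMN_2693922 and ILMN_3052260 and Nrg1), 1 with arrayWeights or the covariate (Areg), 1 with the detection filter at 0.05 (Egfr ILMN_3052260), 1 without the 3 arrays that scored high (Egfr ILMN_3128725), and 0 to 1 with each array left out. The count of all 25697 probes past that threshold moved too. It was 2317 in the main fit, 6963 without normalization, 3443 with arrayWeights and 3351 with the covariate. With the detection filter at 0.05 it was 1926 of 12104, without the 3 arrays 3202, and with each array left out 1632 to 3053. At the adjusted threshold the member count of 0 became 1 with the covariate (Areg), and was 0 to 0 with each array left out. The 10 pathway calls became 24 without normalization and 5 to 12 with each array left out. Without normalization, where the median of all probes moved by -0.49, Egfr ILMN_3128725 (-0.46), Hbegf (-0.50), Areg (-0.19), Rnf41 (-0.46) and Errfi1 (-0.48) changed sign. With division by the median, Egfr ILMN_2693922 (0.055), Cd9 (0.033) and Lrig3 (0.037) did, and Egfr ILMN_2693922 was 0.16 without the 3 arrays and -0.13 to 0.084 with each array left out. The causes were not tested. Same-numbered arrays correlated in their deviations at 0.68, -0.63, 0.18 and 0.70 for replicates 1 to 4, and the arrays numbered 1 and 4 correlated best with their own number. As replicates 2 and 3 did not, the numbers were not taken as pairs. These correlations do not settle whether the sets were paired. With the replicate number as a block, 45 probes passed the adjusted threshold (23 higher and 22 lower), 1 member probe passed the unadjusted one (Egfr ILMN_3052260, limma, adjusted p = 0.450) and 6 pathway genes did. By Dixon's test no member value, median signal or number of detected probes stood out in 16 groups of 4 arrays. Dim probes are limited by the floor on low signals.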
